A study of Heliconius himera and Heliconius erato lativitta and Heliconius erato petiverana with 18 samples.

Results

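Forewings of Heliconius himera were set against forewings of Heliconius erato lativitta in 6 of the 18 RNA-seq libraries of the series. Members were taken by taxon and wing, which gave himera forewing (FW) libraries 1, 2 and 3 and lativitta FW libraries 1, 2 and 3. The remaining libraries are the hindwings (HW) of both taxa and both wings of H. erato petiverana. All animals were reared at about 27 °C and sampled at day 3 after pupation, the whole wing was used, and no agent or genetic change is recorded for any group. Nothing in the labels states that the libraries within a group are from different animals, and p-values therefore cover only the variation among these libraries. Sex, the number of wings per library and the origin of the stocks are not stated in the labels.

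Heliconius are Neotropical butterflies whose wing colour patterns warn predators and are shared between mimetic species. H. himera is a close relative of H. erato with a yellow forewing band and a red hindwing bar, while lativitta is an Amazonian race with red rays on the hindwing. Colour boundaries are laid down during wing development by a small number of patterning genes before any pigment is made. An early pupal wing is a developing epithelium in which scale cells are taking on their fates. The design asks which transcripts differ in abundance between the forewings of these taxa at that stage. The files pair their gene IDs with no names. IDs are therefore printed as deposited, 2 for each direction, and neither patterning genes nor markers of wing tissue could be looked up.

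Himera FW 1 stood apart from the other 5 libraries compared before any test. Its Spearman correlation across IDs was 0.746 with himera FW 2 and 0.741 with himera FW 3, while FW 2 and FW 3 correlated at 0.980. It correlated at 0.853 to 0.875 with the petiverana FW libraries and at 0.726 to 0.736 with the lativitta FW libraries. Himera FW 2 and 3 correlated at 0.922 to 0.951 with lativitta FW. The correlations run across genes, and genes are not replicates. Ambiguous reads, which overlap more than 1 annotated feature, made up 0.653% of the reads of himera FW 1, against 1.62% and 1.70% in himera FW 3 and 2 and 1.40% to 1.76% in lativitta FW. The 10 most abundant IDs took 30.7% of gene reads in himera FW 1, and 9.67% to 11.3% in the other 5 libraries. Himera HW 1 shared the pattern, with 0.715% ambiguous reads and 31.9% in the 10 most abundant IDs, and so did the 6 petiverana libraries, with 0.453% to 0.694% and 30.7% to 33.7%. Log2 CPM (counts per 1000000 gene reads) of himera FW 1 was over 1 away from the mean of FW 2 and 3 in 3513 of 9957 IDs, or 35.3%. Himera FW 2 and 3 were that far apart in 6.85% of IDs, and pairs of lativitta FW libraries in 7.13% to 13.0%. Whether the label or the processing of himera FW 1 and HW 1 differs from that of the other himera libraries cannot be read from the labels, so each mean of 3 himera libraries includes a library whose identity is uncertain. The part of these measures in the results was not tested. The count of calls, the size of their differences and the named IDs are given with and without himera FW 1, and the hindwing values with and without himera HW 1. The counts by abundance rest on all libraries.

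Depth did not set that library apart. Himera FW libraries held 7071203 to 8959002 gene reads and lativitta FW libraries 4624352 to 9113600. The limit that a count of 0 allows, 3 reads, corresponds to 0.335 to 0.424 plain CPM in himera FW and 0.329 to 0.649 in lativitta FW, for counting error alone. Of the 14612 IDs in the files, 12870 had at least 1 read in these 6 libraries, and 9957 passed the filter on low counts and were tested.

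The forewings differed in 93 of the 9957 IDs tested, which is 0.934%. In himera 47 IDs were higher (0.472%) and 46 lower (0.462%). The test was edgeR's quasi-likelihood test with an adjusted p under 0.05 by Benjamini-Hochberg, fitted to all 18 libraries so that all groups share 1 estimate of spread. Differences are log2 values of himera FW minus lativitta FW. The IDs higher in himera had a median difference of 2.28, a range of 0.65 to 6.70 and a median standard error (SE) of 0.44. Those lower in himera had a median of -1.49, a range of -0.69 to -6.39 and a median SE of 0.24. Over all 9957 IDs the median size of the difference was 0.43 and the median SE 0.40. A difference larger than 1 in size was found in 82 of the 93.

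In each of the 93 IDs the 3 himera FW libraries lay wholly above or wholly below the 3 lativitta FW libraries. Groups also failed to overlap in 27.4% of all tested IDs, with himera above in 13.6% and below in 13.7%, so the separation alone did not mark out the called ones. The adjusted p-values of the 93 ran from 0.0030 to 0.049. Without adjustment 1992 IDs (20%) had an edgeR p under 0.05, of which 1226 were higher and 766 lower in himera.

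**Figure D1:**
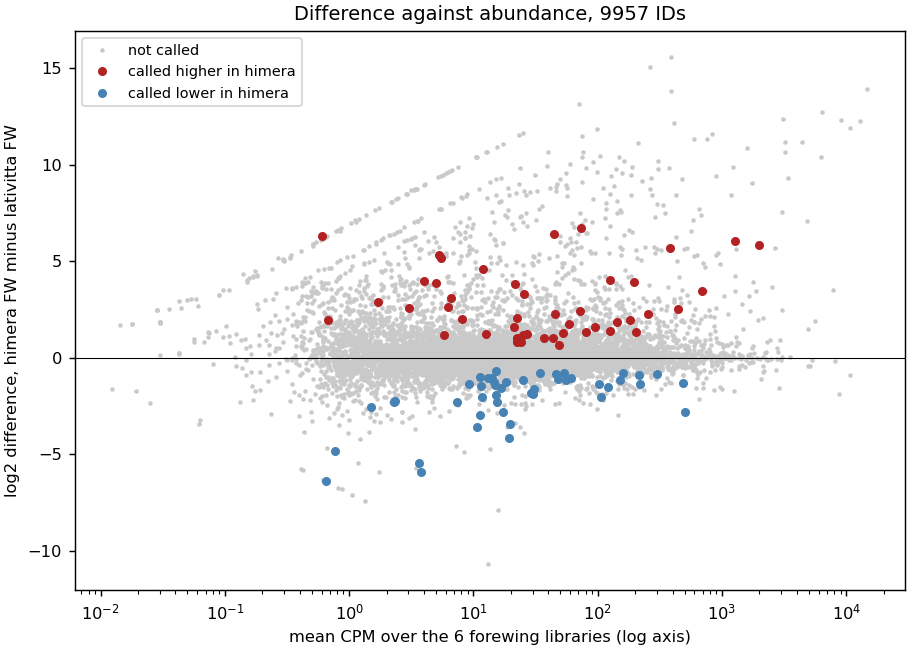
Log2 difference of himera FW minus lativitta FW (vertical axis) against mean CPM over the 6 forewing libraries (horizontal log axis) for 9957 IDs, with the 47 called higher in himera in red, the 46 called lower in blue and the rest in grey. The called IDs span abundances from under 1 to over 100 CPM, and the 124 differences over 8 are all grey.

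Called IDs were found at every level of abundance. Of the 93, 50 had a mean of 10 to 100 CPM over the 6 libraries, where 4873 IDs were tested (1.03% called). At 100 CPM or more 22 of 1412 were called (1.56%), at 1 to 10 CPM 17 of 3095 (0.549%) and under 1 CPM 4 of 577 (0.693%). The median size of a called difference was 5.57 under 1 CPM, 2.64 at 1 to 10 CPM, 1.36 at 10 to 100 CPM and 1.92 at 100 CPM or more. The median SE over all tested IDs in these bands was 1.28, 0.52, 0.31 and 0.38. The side with the lower level held at most 10 reads over its 3 libraries in 9 of the 93 IDs.

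The 4 IDs followed in each library were the largest differences per direction among those called with and without himera FW 1. There were 9 candidates higher in himera and 7 lower, ranked by the smaller of the 2 fitted differences. HEL_009697 was the first of the IDs higher in himera. It was at 188, 21.6 and 54.3 CPM in himera FW 1, 2 and 3, against 1.64, 0.461 and 0.865 CPM in lativitta FW 1, 2 and 3. The himera libraries were far apart, with FW 1 highest, and even the lowest of them was far above every lativitta library. The mean was 88.1 ± 88.4 CPM in himera FW and 0.989 ± 0.600 CPM in lativitta FW (SD, n = 3 each). The fitted difference was 6.42 (SE 0.97, edgeR adjusted p = 0.0113). Without himera FW 1 the himera mean was 38.0 CPM and the difference 5.19 (SE 0.80, edgeR adjusted p = 0.0350). The call was lost without lativitta FW 1 (edgeR adjusted p = 0.0594) or lativitta FW 2 (0.0772). In petiverana FW it was at 84.5, 128 and 78.1 CPM, above all lativitta FW libraries. These values lay above both himera FW 2 and FW 3 and under himera FW 1, so they fall in the himera range only through FW 1.

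HEL_008340 was the second ID higher in himera. It was at 12.1, 17.2 and 2.73 CPM in himera FW 1, 2 and 3, and at 0.224, 0.346 and 0.288 CPM in lativitta FW 1, 2 and 3, which hold 3, 3 and 2 reads. Here himera FW 1 lay between the other himera libraries, FW 3 was lowest, and the groups did not overlap. The log2 difference was 5.17 (SE 0.86, edgeR adjusted p = 0.0166), and 5.07 without himera FW 1 (SE 0.91, adjusted p = 0.0474). Counting error alone puts the ratio of himera to lativitta at 35.5 (exact 95% interval 17.7 to 83.0). The call was lost without himera FW 2 (edgeR adjusted p = 0.0553) and without lativitta FW 1 (0.118), FW 2 (0.0911) or FW 3 (0.0622). Petiverana FW libraries were at 1.27, 4.30 and 4.33 CPM, above all lativitta FW libraries and reaching into the himera range.

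HEL_007160 was almost unread in himera. Himera FW 1, 2 and 3 held 1, 0 and 3 reads of it (0.181, 0 and 0.256 CPM), while lativitta FW 1, 2 and 3 held 76, 61 and 60 reads (5.67, 7.04 and 8.65 CPM). No himera library exceeded the level of 3 reads and each lativitta library was far above it. The mean was 0.146 ± 0.132 CPM in himera FW and 7.12 ± 1.49 CPM in lativitta FW (SD, n = 3 each). The ratio of himera to lativitta was 0.0222 (exact 95% interval 0.00598 to 0.0576, counting error alone). The fitted log2 difference was -5.45 (SE 0.81, edgeR adjusted p = 0.0113), and -5.55 without himera FW 1 (SE 0.98, adjusted p = 0.0436). The call was lost without lativitta FW 2 (edgeR adjusted p = 0.0552). The 3 petiverana FW libraries held 3 reads in all.

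HEL_007078 was detected in both forewings at unequal levels. It was at 0.181, 1.71 and 2.82 CPM in himera FW 1, 2 and 3, against 15.6, 21.0 and 22.6 CPM in lativitta FW 1, 2 and 3. Himera FW 1 held 1 read and was the lowest, and the highest himera library was still far under the lowest lativitta one. The log2 difference was -3.57 (SE 0.61, edgeR adjusted p = 0.0188) with all libraries. Without himera FW 1 it was smaller in size and had a smaller SE, at -3.11 (SE 0.47, edgeR adjusted p = 0.0350). The call was lost without himera FW 2 (edgeR adjusted p = 0.0754), lativitta FW 1 (0.0605) or lativitta FW 2 (0.0772). Petiverana FW libraries were at 0.636, 1.38 and 0.619 CPM, under all lativitta FW libraries. They lay above himera FW 1 and under both himera FW 2 and FW 3, so they fall in the himera range only through FW 1.

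**Figure D2:**
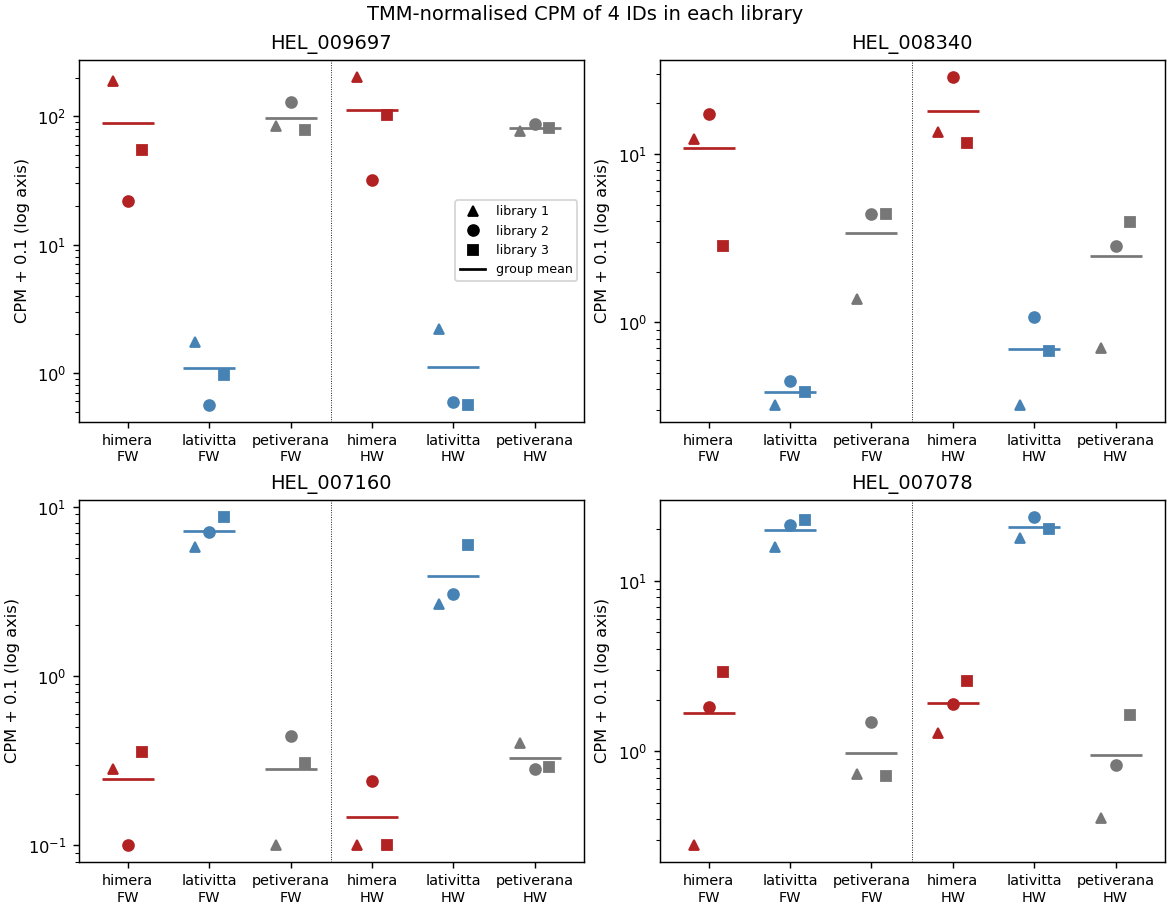
TMM-normalised CPM plus 0.1 (log axis) of HEL_009697, HEL_008340, HEL_007160 and HEL_007078 in each library of the 6 groups, with forewings left and hindwings right of the dotted line; symbols give the library number and horizontal lines the group mean. In all 4 panels the himera and lativitta points are apart in both wings.

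Leaving out himera FW 1 ended most calls. In the fit of the remaining 17 libraries 19 of 10259 IDs passed (0.185%), with 10 higher (0.0975%) and 9 lower (0.0877%) in himera. Of these, 16 were among the 93. All 93 kept their sign, which the lack of overlap between their groups had all but fixed in advance. Each of them kept an unadjusted edgeR p under 0.05, which 1317 of the 10259 IDs tested had in that fit. The 93 were chosen by the adjusted p of a fit that holds the same libraries, so keeping that p is no added support. The 77 that lost the call had an adjusted p of 0.0650 to 0.163. The median of the 47 higher IDs was 1.65 without that library, against 2.28 with it, and that of the 46 lower IDs was -1.39 against -1.49. The difference became smaller in size in 34 of the 47 and in 35 of the 46. It moved by under 0.25 in 24 of the 47 and in 38 of the 46. The largest drop was 1.66, among the higher IDs. Loss of most calls was not particular to himera FW 1. Of the 93, 15 stayed called without himera FW 2 and 50 without himera FW 3. Without lativitta FW 1, 2 or 3 it was 11, 3 and 32.

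Himera FW 1 was the himera library farthest from lativitta in 60 of the 93 IDs. It was so in 61.7% of the called higher IDs and 67.4% of the called lower ones, against 56.5% and 57.8% of all tested IDs of the same sign. Its share of the summed CPM of the 3 himera libraries reached at most 78.8% in a called higher ID. Himera FW 2 and 3 lay beyond all 3 lativitta libraries in all 93, as did himera FW 1, which restates that the groups of the 93 do not overlap. With all 3 himera FW libraries this held in 27.4% of all tested IDs. The share with himera FW 2 and 3 alone was not counted.

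The largest fitted differences were not among the calls. A difference over 4 was fitted for 425 IDs, of which 10 were called, and 344 of the 425 had over 90% of the summed himera CPM in himera FW 1. Without that library 231 of the 425 had a difference under 1 or of the other sign. Of the 124 IDs with a difference over 8, 121 had over 90% in himera FW 1 and 0 were called (lowest edgeR adjusted p = 0.0794). In the other direction 22 IDs had a difference under -4, and 0 of the 22 shrank to under 1 in size. Among all 2334 IDs with a difference over 1 in size, 416 (17.8%) changed sign when himera FW 1 was left out, and none of the 82 called ones did.

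**Figure D3:**
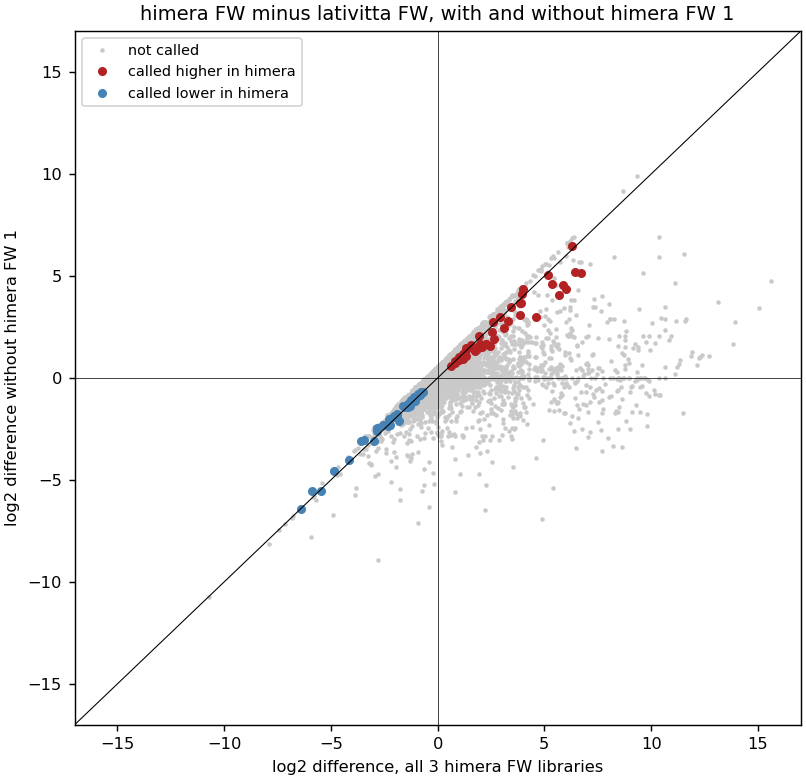
Log2 difference of himera FW minus lativitta FW fitted with all 3 himera FW libraries (horizontal axis) and without himera FW 1 (vertical axis) for the IDs tested in both fits, with the diagonal in black. The 46 called lower IDs (blue) lie within 0.46 of the diagonal and the 47 called higher IDs (red) mostly on or under it, by up to 1.66, while many uncalled IDs with a large positive difference fall to about 0 or below it without himera FW 1.

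Within-group spread moved with the same library. The median SD of log2 CPM over 9957 IDs was 0.444 in himera FW 1 to 3 (n = 3) and 0.264 in lativitta FW (n = 3). It was 0.162 in himera FW 2 and 3 alone (n = 2). At equal spread a median SD is lower with n = 2 than with n = 3, so the 0.162 is not directly comparable. The quality weight that limma assigned to himera FW 1 was 0.175, against 1.80 and 2.07 for himera FW 2 and 3 and 0.944 to 1.75 for the lativitta FW libraries. Petiverana FW 1 and HW 1 were also weighted low, at 0.272 and 0.221, against 1.24 to 1.75 for the other petiverana libraries. They enter the estimate of spread that all groups share in the fit of 18 libraries. The number of calls differed widely between fits that changed the libraries or the test. The fit of the 6 compared libraries alone gave 0 calls in edgeR, with 1755 IDs at an unadjusted p under 0.05. The same fit without himera FW 1 gave 825 calls among 9259 IDs tested. Of the 825, 493 were higher and 332 lower in himera, and 84 of the 93 were among them. With himera FW 1, himera HW 1 and petiverana all left out, 1125 of 9579 IDs tested passed, 614 higher and 511 lower, and 91 of the 93 were among them. These 10 libraries are those with at least 1% ambiguous reads, so this is also the value within that set. DESeq2 on all 18 libraries called 1112 IDs (11.2%), 707 higher (7.1%) and 405 lower (4.07%) in himera, all 93 included. Limma-voom with quality weights called 1834 (18.4%), 938 higher (9.42%) and 896 lower (9%), with 91 of the 93 included. All these fits reuse the same libraries, so finding the 93 among their calls is no independent support.

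These lists overlapped in part. The 825 and the 1125 IDs shared 733 with the same sign, which is 88.8% of the first list and 65.2% of the second. The limma-voom list held 82.3% of the 825 and 82.0% of the 1125. The DESeq2 list held fewer of them, 393 with the same sign or 47.6% of the 825, and 4 more had the opposite sign. Single libraries also moved the edgeR count, which was 19, 17 and 62 when himera FW 1, 2 or 3 was left out in turn and 11, 3 and 37 for lativitta FW 1, 2 and 3. None of the 93 changed sign in any of the 24 other settings, each of which tested 89 to 93 of them. Their groups did not overlap in the forewing libraries compared, and each setting refits those libraries or a part of them. The signs were thus all but fixed in advance, and keeping them is no added support.

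**Figure D4:**
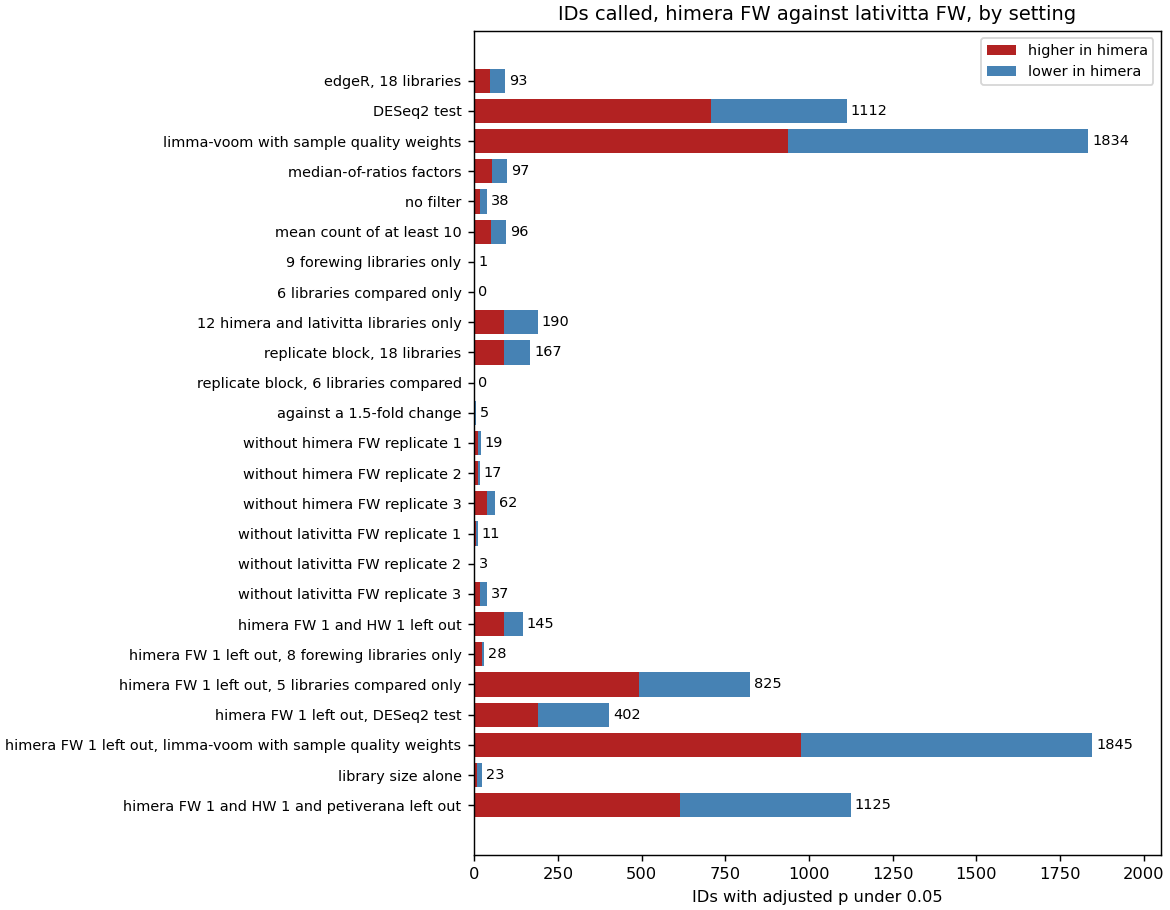
Number of IDs with adjusted p under 0.05 for himera FW against lativitta FW in each setting, split into those higher in himera (red) and lower in himera (blue); the top bar is the edgeR fit of all 18 libraries. Counts run from 0 in the fits of the 6 compared libraries to 1845 with limma-voom and without himera FW 1.

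The same taxa could also be compared in hindwing libraries, which the forewing test does not contrast. All 93 forewing IDs had the same sign in the hindwing, as had 83.4% of all tested IDs. Hindwing groups did not overlap in 88 of the 93, against 29.5% of all IDs, and 63 of the 93 passed the hindwing test, in which 1.9% of IDs were called. These were 33 of the 47 higher IDs, where 0.944% of all IDs were called higher, and 30 of the 46 lower IDs, where 0.954% were called lower. The median hindwing difference was 2.04 for the 47 higher IDs, with a range of 0.52 to 6.95, and -1.34 for the 46 lower IDs, with a range of -5.44 to -0.04. Without himera HW 1, 92 of the 93 had the same sign, as had 75% of all tested IDs, 90 did not overlap (48.7% of all IDs with 2 himera libraries left) and 47 passed, in a fit that called 1.33% of IDs. These were 27 of the 47 higher IDs, where 0.951% of all IDs were called higher, and 20 of the 46 lower IDs, where 0.378% were called lower. The ID of the other sign was at 0.13 (SE 0.61) in the hindwing. Without himera FW 1 and HW 1, 68 of the 93 passed in the hindwing, where 4.8% of IDs were called. These were 38 of the 47 higher IDs, where 2.96% of all IDs were called higher, and 30 of the 46 lower IDs, where 1.84% were called lower. Without himera HW 1 the median was 1.97 for the higher IDs, with a range of 0.45 to 7.0, and -1.35 for the lower IDs, with a range of -5.24 to 0.13. Equal numbers in both wings may mark 1 animal, which the labels do not state, so the hindwings are not shown to be independent samples. The fit also shares 1 spread for both wings.

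For HEL_009697 the hindwing libraries were at 204, 31.6 and 103 CPM in himera and 2.11, 0.490 and 0.460 CPM in lativitta. The himera hindwings repeated the order of the forewings, with library 1 highest and library 2 lowest, and no value overlapped. HEL_008340 was at 13.5, 28.7 and 11.5 CPM in himera HW and 0.222, 0.979 and 0.575 CPM in lativitta HW, again without overlap. HEL_007160 had 3 reads in himera HW and 92 in lativitta HW, a ratio of 0.0216 (exact 95% interval 0.00437 to 0.0651). None of the 3 reads was in himera HW 1, and the ratio without that library was 0.0245 (0.00496 to 0.0738). HEL_007078 averaged 1.82 ± 0.645 CPM in himera HW and 20.4 ± 2.98 CPM in lativitta HW (SD, n = 3 each), close to its forewing levels. Without himera HW 1 its himera HW mean was 2.14 ± 0.471 CPM (SD, n = 2). All 4 IDs passed the hindwing test without himera HW 1, with edgeR adjusted p of 0.0101 to 0.0370.

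Whether the difference between taxa depended on the wing was tested as an interaction. EdgeR called 0 of 9957 IDs (0%) and gave 67 an unadjusted p under 0.05. DESeq2 called 7. The 67 became 397 without himera FW 1, 392 without himera HW 1, 292 without both and 594 with number within taxon as a replicate block, and edgeR called 0 in each. It was 135 without lativitta FW 3, 42 without lativitta FW 2 and 44 without himera HW 3, and 45 to 87 without any 1 of the other 7 himera or lativitta libraries. Forewing and hindwing deviations from the group means correlated at 0.919, 0.869 and 0.850 for himera 1, 2 and 3, and at 0.597, -0.534 and -0.458 for lativitta 1, 2 and 3. Crossed numbers of himera also correlated, at 0.673 for FW 2 with HW 3 and 0.676 for FW 3 with HW 2. Each himera deviation is from a mean that includes library 1. Lativitta FW 2 correlated with HW 3 at 0.732 and FW 3 with HW 2 at 0.626. Numbers 2 and 3 of lativitta therefore do not join the wings that deviate together, and the block joins them by number, so its value of 594 rests on a pairing that these correlations go against in lativitta. Among the 93, 6 had an unadjusted edgeR p under 0.05, against 67 of all 9957 IDs. Without himera FW 1 it was 7 of the 93, against 397 of 10259. Without himera HW 1 it was 4, against 392 of 10304, and with the block 9, against 594 of 9957. The 93 were chosen by the forewing difference, which enters the interaction, so their counts are not comparable with those of all IDs. For the 4 IDs above, the forewing difference exceeded the hindwing one by -0.32 (SE 1.16) for HEL_009697, 0.23 (SE 0.98) for HEL_008340 and -0.12 (SE 0.79) for HEL_007078 on the log2 scale. No SE is given for HEL_007160, whose value was -0.01 and which has few himera reads. An SE taken from the F statistic is unstable where the value is near 0. For HEL_008340 it was 0.37 without himera HW 3 and 72.3 without himera FW 1 and HW 1, so the SEs of small values are rough. The edgeR adjusted p was 1.0 for each of the 4. Without himera HW 1 the values were 0.42 (SE 1.17) for HEL_009697, 0.06 (SE 0.78) for HEL_008340 and -0.30 (SE 0.81) for HEL_007078, with an edgeR adjusted p of 1.0 each. The test does not show that the taxa differ alike in both wings.

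**Figure D5:**
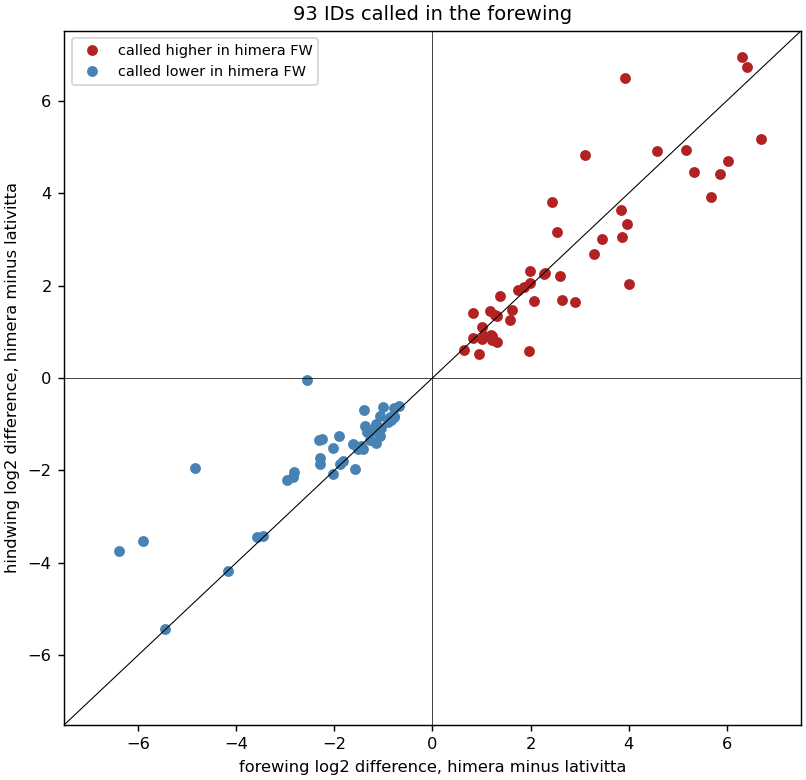
Log2 difference of himera minus lativitta in the forewing (horizontal axis) and in the hindwing (vertical axis) for the 93 IDs called in the forewing, with the diagonal in black. With all libraries, as drawn, every point lies in the 2 quadrants of equal sign, and hindwing values run from -5.44 to 6.95. Without himera HW 1, 92 of the 93 would.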

How the data were processed

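The authors deposited 1 table of raw read counts per library, with 14612 gene IDs and 5 summary rows. The tools TopHat, bedtools and DESeq2 appear, with no role or version, per the submitters' processing notes. Per the labels' protocols, RNA was poly-A selected and made into libraries with an NEB kit. Which genome build, annotation and strand mode were used is not given in the sources used here. All taxa were counted on 1 ID list, so differences in alignment between taxa enter each comparison, and overlapping or near-identical genes are uncertain. The summary rows held 49.4% to 57.3% of reads in the 6 libraries and were left out.

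The analysis used edgeR 4.0.16 in R 4.3.3 (filterByExpr, TMM factors, glmQLFit and glmQLFTest, 1 mean for each of 6 groups, 12 residual degrees of freedom), with a threshold of 0.05. CPM carries the TMM factors except where called plain, and log2 CPM used a prior count of 2. SEs come from the F statistic. DESeq2 1.42.0 and limma 3.58.1 were alternatives. The steps were also run on simulated counts. No outcome of that run is given here, so it is no support for the results from the real libraries. No 2 libraries of any of the 6 groups agreed within sampling noise (lowest chi-square per degree of freedom 15.9). The comparison and lists were chosen with earlier results of these data known. Named IDs had to be called with the same sign with and without himera FW 1, have groups that do not overlap and reach 1 CPM. The first 2 per direction by the smaller difference were taken. Gene lists and cell type markers that had been planned could not be used, since no ID has a name.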

Additional observations from a re-analysis of the deposited data

How the results depend on the processing

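The count of 93 stayed within 1.5 times with median-of-ratios factors (97) and with a filter at a mean count of 10 (96). It was 38 without a filter, 1 with the 9 forewing libraries only and 0 with the 6 compared libraries only. It was 190 with the 12 himera and lativitta libraries, 5 against a 1.5-fold change, 1112 with DESeq2 and 1834 with limma-voom. Without himera FW 1 and HW 1 it was 145. Without himera FW 1 it was 28 in the 8 forewing libraries, 825 in the 5 compared libraries, 402 with DESeq2 and 1845 with limma-voom. Leaving out each library in turn gave 3 to 62. Chosen after seeing the data were the fit without himera FW 1, HW 1 and petiverana (1125) and scaling by library size alone (23). Scaling by library size moved the median difference of all IDs by -0.49, to -0.42, and split the calls into 7 higher and 16 lower. The cause of these changes was not tested.

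Equal numbers of himera and lativitta FW libraries had deviations from their group means that correlated at -0.003, -0.07 and 0.02, so numbers do not pair the taxa. A replicate block gave 167 calls with 18 libraries and 0 with the 6 compared libraries. The interaction with wing kept 0 calls in each edgeR setting, the replicate block by number within taxon included, and gave 7 with DESeq2. Of 24 settings, HEL_009697 and HEL_007160 kept their call in 19 each, HEL_007078 in 16 and HEL_008340 in 12, and none of the 4 changed sign. Their signs were all but fixed in advance, since the 4 were chosen with groups that do not overlap. With 3 libraries a group, depth limits IDs under about 0.65 plain CPM, the level of 3 reads in the shallowest library.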

Other observations

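Some IDs called between the forewings had neighbouring numbers. Of the 93, which were called with himera FW 1 included, 7 (7.53%) had the next lower or next higher number called in the same direction. The 7 form runs and are not separate cases: HEL_008692 to HEL_008694, HEL_004207 with HEL_004208, and HEL_001044 with HEL_001045. Over all 9957 tested IDs, 143 (1.44%) had an ID called in either direction at a neighbouring number. That is a wider rule than the same direction asked of the 93, so the shares are not like for like. Whether the numbers follow the order of genes along a chromosome is not given in the sources used here, and neighbouring genes with similar sequence can share or lose reads, which was not tested.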
